A study of Mus musculus with 72 samples.

Results

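Bulk transcriptomes of the mouse brain were read for 8 genes that mark classes of cortical interneurons, which are the 6 neuropeptide genes *Sst*, *Npy*, *Vip*, *Cck*, *Tac1* and *Crh* and the calcium-binding protein genes *Pvalb* and *Calb2*. They were taken by name, as the rows of the count table whose identifiers carry these symbols in the authors' tables, and make up 8 of 55401 genes. Each came from the right brain hemisphere of C57Bl/6 pups (C57Bl/6NTac in the study's methods), although the submitters' design text names the cortex. PND1 pups were exposed in utero to morphine, an opioid agonist, at 10 mg/kg/day or to saline from an osmotic minipump carried by the dam, and were dissected on postnatal day 1. PND14 pups received injections 2 times a day after birth, of morphine at 10 mg/kg or of saline, and were dissected on day 14, for which the design text gives day 15. The 3-Tri pups received both exposures, by pump and then by injection, and were dissected at the age of the PND14 pups. Saline pups went through the same pumps and injections as the morphine pups of their window. The labels give a gender, written here as code F and code M. PND1 held 4 morphine libraries of code F and 6 of code M, against 7 saline libraries of each code, and every group of PND14 and 3-Tri held 6 libraries, 72 in all. No source used here names the litters. Pups may share a dam, and p-values measure only the spread from pup to pup. The PND14 and 3-Tri sample descriptions also give an ID number, whose meaning is not stated, and each ID number covers 1 drug. In PND14 these were 4422 and 4423 for morphine and 4424 and 4425 for saline. In 3-Tri they were 4433 and 4436 for morphine and 4431 and 4429 for saline. The drug comparisons of these windows thus rest on 2 ID numbers per drug, and differences between ID numbers are not in the edgeR p-values.

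Cortical interneurons use GABA and fall into classes that are named after the peptide or calcium-binding protein they make. Parvalbumin (*Pvalb*) marks fast-spiking basket and chandelier cells, somatostatin (*Sst*) marks cells that contact distal dendrites, and vasoactive intestinal peptide (*Vip*) marks cells that inhibit other interneurons and often also make cholecystokinin (*Cck*), calretinin (*Calb2*) or corticotropin-releasing hormone (*Crh*). Neuropeptide Y (*Npy*) is made by neurogliaform cells and by many *Sst* cells, and *Tac1*, the precursor of substance P, by a share of several classes. None of the 8 genes is restricted to cortical interneurons. *Cck* is also made by pyramidal neurons, *Tac1* by projection neurons of the striatum, *Crh* by the hypothalamus, *Pvalb* by Purkinje cells of the cerebellum and *Calb2* by the olfactory bulb and thalamus. In a bulk sample, fewer cells of a type and less RNA per cell cannot be told apart.

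The total count per library was 20742862 to 27333125 in PND1, 4407544 to 21404819 in PND14 and 3113919 to 19938980 in 3-Tri. The shallowest library of each of the later windows was left out of the authors' own comparisons (PND14 code F morphine replicate 4 and 3-Tri code M saline replicate 1), and both are kept in the values here. Counts of *Xist* and *Ddx3y*, which mark the inactive X chromosome and the Y chromosome, went against the gender label in 4 of 24 PND1 libraries, 0 of 24 PND14 libraries and 12 of 24 3-Tri libraries, so the 3-Tri groups are groups by label only. The 4 PND1 libraries were code F morphine replicate 4, code M morphine replicate 5, code F saline replicate 5 and code M saline replicate 10. In PND1, code M morphine replicates 5, 8, 9 and 10 had a higher summed level of hindbrain and spinal cord markers than any other library of that age. The calls for morphine at PND1 are given with and without these libraries. Levels are CPM, the counts of a gene scaled to a common library total, after TMM normalization, which scales each library by the genes it shares with the others, and log2 fold changes (log2FC) come with their standard errors (SE) from edgeR's quasi-likelihood test. A gene was called at a Benjamini-Hochberg adjusted p under 0.05 over all genes tested. All 8 genes passed edgeR's filter on low counts in every fit.

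**Figure D1:**
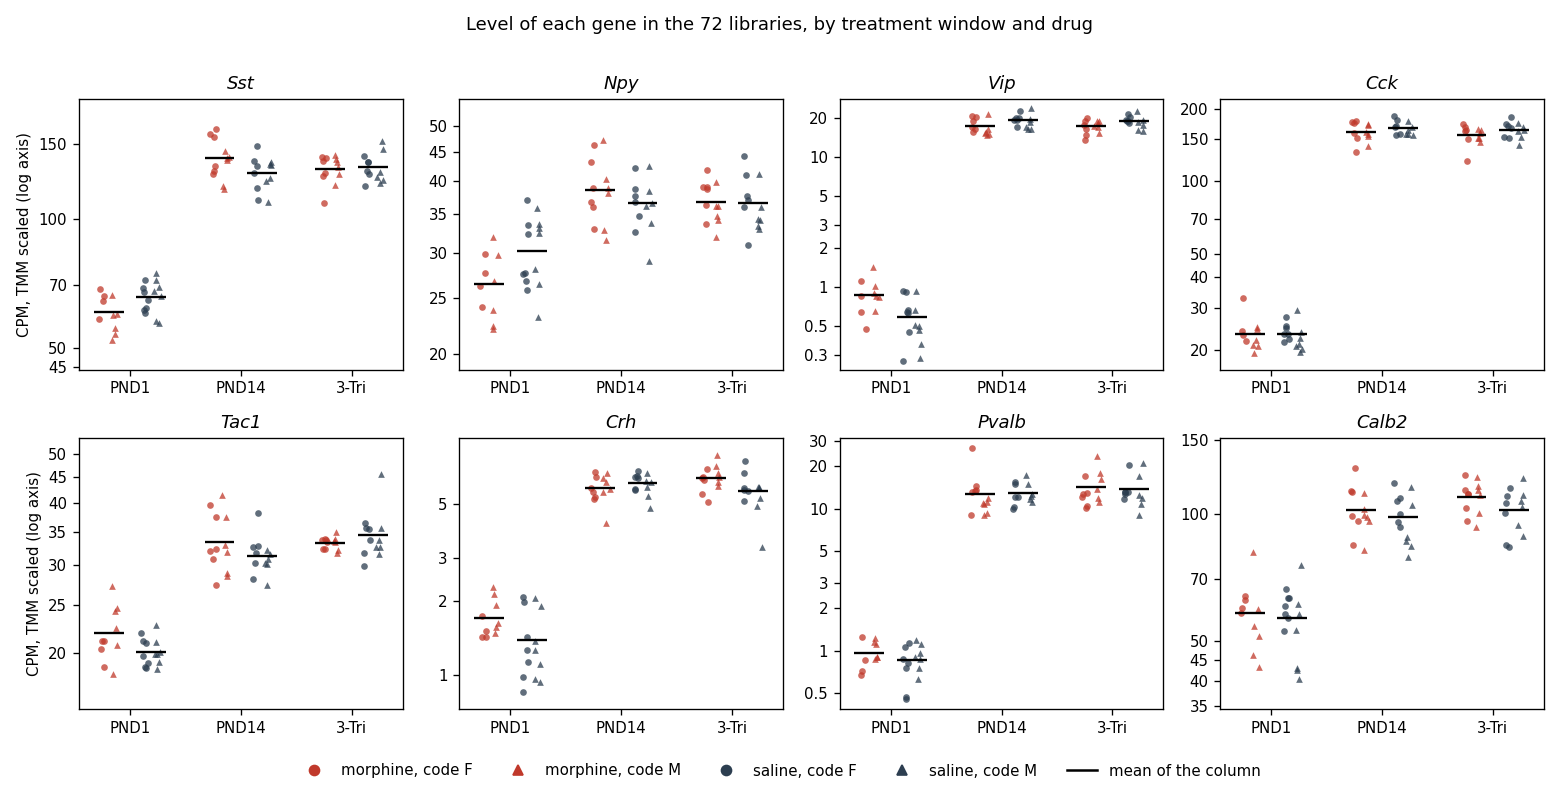
Level of each of the 8 genes in the 72 libraries. Each panel has a log axis in CPM. The columns are morphine (red) and saline (dark) for PND1, PND14 and 3-Tri, circles are code F, triangles are code M and the bar is the mean. *Vip* lay between 0.273 and 0.934 CPM in the PND1 saline libraries and between 16.5 and 23.99 CPM in those of PND14.

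The first question was how the 8 genes change with age in pups that received only saline. All 8 were higher in PND14 than in PND1 saline pups, 12 libraries against 14, and 7 of them had every PND14 library above every PND1 library. Of the 22010 genes tested, 84.9% were called in either direction and 41.7% as higher, so a call by itself sets no gene apart in this comparison. The share of all genes whose libraries separate fully was not counted, so such separation sets no gene apart either. The same holds for counts of separated libraries in the morphine comparisons below. The size of the change did differ between the genes, with a median log2FC of 1.54 over the 8 genes and -0.02 over all genes tested. The PND1 saline pups had their saline by way of the dam's pump and the PND14 saline pups by injection, and age, this difference and any difference in library preparation between the windows cannot be told apart.

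*Vip*, a peptide that relaxes smooth muscle and acts in the cortex through cells that silence other interneurons, rose most. It lay between 16.5 and 23.99 CPM (median 19.3) in PND14 saline pups and between 0.273 and 0.934 CPM (median 0.575) in PND1 saline pups. At PND1 this rested on 7 to 36 counts per library over both drugs, so a single PND1 value carries a wide counting error. The means were 19.3 ± 2.3 CPM (SD, n = 12) and 0.592 ± 0.223 CPM (SD, n = 14), a log2FC of 5.01 (SE 0.10, 32.3-fold, edgeR adjusted p = 1.51e-53). Only 31 of the 22010 genes, or 0.141%, had a larger log2FC.

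*Pvalb*, which buffers calcium in fast-spiking cells, was second. It lay between 9.89 and 17.2 CPM (median 12.2) in PND14 saline pups and between 0.457 and 1.19 CPM (median 0.869) in PND1 saline pups, where it had 11 to 36 counts per library over both drugs. The log2FC was 3.90 (SE 0.15, edgeR adjusted p = 6.13e-36), and 0.432% of genes had a larger one. The summed level of 8 cerebellar markers was lower at the later age, at 107 ± 18 CPM (84.2 to 148) in PND14 saline pups and 284 ± 57 CPM (193 to 410) in PND1 saline pups. Of these 8 markers 2 were called higher and 5 lower, with a median log2FC of -0.96. *Pcp2*, 1 of the 8, averaged 2.58 ± 0.57 CPM in PND14 saline pups and 1.91 ± 0.57 CPM in PND1 saline pups, against the direction of the sum. The part of the cerebellum in the rise of *Pvalb* was not tested.

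*Cck*, the peptide that also acts in the gut as a satiety signal, averaged 167 ± 11 CPM in PND14 saline pups and 23.2 ± 2.7 CPM in PND1 saline pups, with every PND14 library at 156 or more and every PND1 library at 29.4 or less. Its log2FC was 2.85 (SE 0.06, edgeR adjusted p = 3.02e-54). *Crh*, best known as the hypothalamic trigger of the stress response, had 4.79 to 6.82 CPM (median 6.18) in PND14 saline pups and 0.853 to 2.09 CPM (median 1.27) in PND1 saline pups. Its log2FC was 2.13 (SE 0.10, edgeR adjusted p = 3.53e-31), and 7 of 9 hypothalamic markers tested were also called higher and 1 lower, with a median log2FC of 0.59.

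The other 4 genes were already well expressed at PND1 and rose less. *Sst*, which inhibits hormone release and damps excitatory input to dendrites, averaged 128 ± 11 CPM in PND14 saline pups and 65.9 ± 5.5 CPM in PND1 saline pups, a log2FC of 0.96 (SE 0.05, edgeR adjusted p = 9.78e-30). *Calb2* averaged 98.7 ± 12.9 CPM in PND14 saline pups and 56.7 ± 9.8 CPM in PND1 saline pups, a log2FC of 0.80 (SE 0.08, edgeR adjusted p = 1.52e-15). *Tac1* averaged 31.3 ± 2.7 CPM in PND14 saline pups and 20.1 ± 1.3 CPM in PND1 saline pups, a log2FC of 0.64 (SE 0.05, edgeR adjusted p = 1.43e-18). For these genes the distributions at the 2 ages still did not overlap.

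*Npy*, an inhibitory peptide also known for its effect on feeding, changed least. It averaged 36.6 ± 3.8 CPM in PND14 saline pups and 30.3 ± 4.2 CPM in PND1 saline pups, and 5 of 12 PND14 libraries lay above every PND1 library. The log2FC was 0.28 (SE 0.06, edgeR adjusted p = 9.57e-05). The call for *Npy* depended on the scaling. With total counts in place of TMM its log2FC was 0.04 (adjusted p = 0.56), while the median log2FC of all genes moved to -0.25, so that *Npy* stayed above the median gene under both scalings.

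The 2 gender codes gave nearly the same values. All 8 genes were called higher in code F, where 78.9% of genes were called and 38.8% as higher, and all 8 in code M, where 78.7% of genes were called and 38.7% as higher. The log2FC of *Vip* was 4.91 (SE 0.14) in code F and 5.12 (SE 0.15) in code M, and that of *Npy* was 0.30 (SE 0.09) in code F and 0.25 (SE 0.09) in code M. The code M call for *Npy* held in 24 of 29 alternatives, with log2FC values from 0.01 to 0.29, and was lost with total count scaling, with the GC content and length correction, with the replicate block, without PND1 code M saline replicate 14 and without ID number 4425. The saline pups of 3-Tri gave a further set of libraries at the later age, against the same PND1 saline libraries. All 8 genes were called higher there too, with 85.1% of genes called and 42.1% as higher, and the log2FC was 4.98 (SE 0.10) for *Vip*, 4.02 (SE 0.15) for *Pvalb* and 0.28 (SE 0.06) for *Npy*. Between the saline pups of 3-Tri and PND14, 0% of genes were called by edgeR, 723 had an unadjusted p under 0.05, and DESeq2 called 3. None of the 8 genes was called, and the nearest was *Tac1* at a log2FC of 0.12 (SE 0.05, unadjusted p = 0.035), with *Vip* at -0.04 (SE 0.07).

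**Figure D2:**
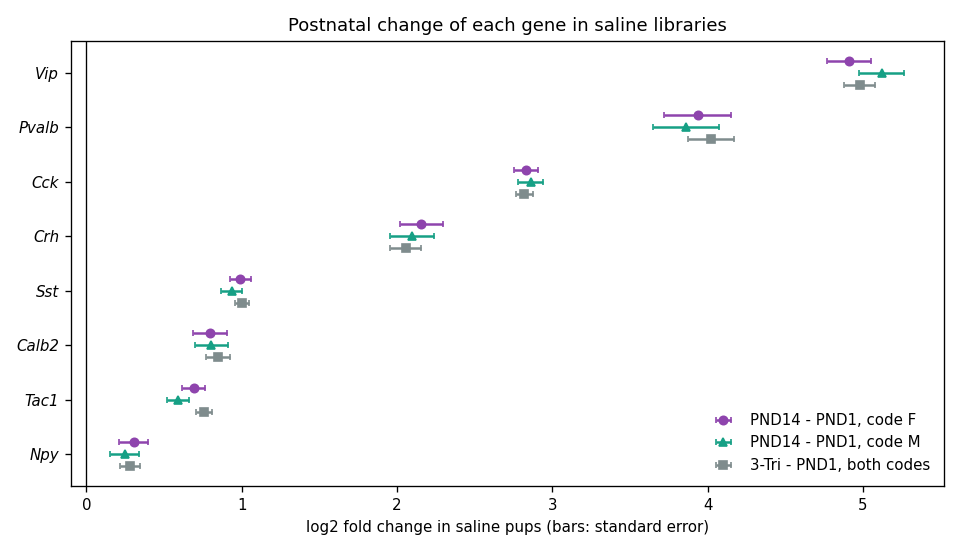
Change of each gene with age in saline pups. The horizontal axis is the log2FC and the bars are 1 SE, for PND14 minus PND1 in code F (circles) and code M (triangles) and for 3-Tri minus PND1 over both codes (squares). The 3 estimates of a gene lie close together, from 4.91 to 5.12 for *Vip* down to 0.25 to 0.30 for *Npy*.

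To set the genes against one another, CPM was divided by the length of the annotated exons in kilobases, from 566 bp for *Npy* to 3402 bp for *Vip*. In PND14 saline pups the order of these per-kilobase levels was *Sst* (178 ± 16 CPM per kb), *Cck* (128 ± 8), *Npy* (64.7 ± 6.8), *Calb2* (56.6 ± 7.4), *Pvalb* (12.4 ± 2.2), *Tac1* (9.22 ± 0.79), *Vip* (5.68 ± 0.68) and *Crh* (4.59 ± 0.45). Among neighbours in this order, the ranges of *Npy* and *Calb2*, of *Pvalb* and *Tac1* and of *Vip* and *Crh* overlapped between libraries, and the other neighbours were apart. In PND1 saline pups the order was *Sst* (91.3 ± 7.7 CPM per kb), *Npy* (53.5 ± 7.5), *Calb2* (32.5 ± 5.6), *Cck* (17.8 ± 2.1), *Tac1* (5.92 ± 0.38), *Crh* (1.05 ± 0.34), *Pvalb* (0.823 ± 0.221) and *Vip* (0.174 ± 0.066), with overlap for *Npy* and *Calb2* and for *Crh* and *Pvalb*. *Sst* was thus first and clear of the next gene at both ages, *Cck* stood behind *Npy* and *Calb2* at PND1 and ahead of both at PND14, and *Vip* stood last at PND1 and just above *Crh* at PND14. The 3-Tri saline pups had the PND14 order.

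The promoters of 4 of the peptide genes are shown for a short motif for which peptide genes are known, the cyclic AMP response element, whose full form is TGACGTCA and whose core is TGACG. The *Sst* gene is the textbook example of this element. RefSeq promoters of the mouse build GRCm38.p6 were matched for 6 of the 8 genes (there was no entry for *Crh* or *Calb2*), and the 250 bases before each start were searched on both strands. TGACGTCA was present in 1.55% of 32851 promoters, TGACG, which TGACGTCA contains, in 17.8%, and the TATA box form TATAAA in 12.4%. *Sst* was the only one of the 6 with TGACGTCA, 48 bases before its start, and *Vip*, *Cck* and *Tac1* had the core alone, while the search found none of these letters for *Npy* and *Pvalb*. The windows below are written 5′ to 3′ on the strand that reads TGACG, which is in capitals, and lie at chr16:23890873-23890902 (minus strand) for *Sst*, chr10:5639129-5639158 (plus) for *Vip*, chr9:121495727-121495756 (plus) for *Cck* and chr6:7555003-7555032 (minus) for *Tac1*. In GENCODE M21 the gene starts 114 bases further upstream for *Sst* and 182 for *Tac1* than in RefSeq, so by that annotation both windows lie inside the gene, in the 5′ UTR of an exon, whereas those of *Vip* and *Cck* lie outside it.
Sst: cctccttggcTGACGtcagagagagagttt
Vip: atcactactgTGACGtctttcggggagcct
Cck: tacccagtgcTGACGcagtccagcaggaca
Tac1: atctcaggcgTGACGagcctgtagagccac
The *Vip* promoter, that of the gene with the largest rise, also had TATAAA on its own strand 157, 147 and 30 bases before the start. Its last 150 bases before the start (chr10:5639068-5639217, plus strand) are given with the TGACG core and the TATAAA motifs at 147 and 30 in capitals. The TATAAA at 157 lies outside this stretch.
Vip, 150 bases: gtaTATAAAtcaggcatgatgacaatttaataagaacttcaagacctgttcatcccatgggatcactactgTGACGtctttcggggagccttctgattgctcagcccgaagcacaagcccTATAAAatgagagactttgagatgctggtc
These are matches of letters and are not evidence of binding in these samples.

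The other genes of the pathway were read from lists of interneuron identity genes, further interneuron markers, receptors of the peptides, and genes of peptide processing. In PND14 against PND1 saline pups, all 13 of the peptide processing and vesicle genes rose and none fell, with a median log2FC of 1.4, beside 41.7% higher and 43.2% lower over all genes. *Pcsk2*, a convertase that cuts peptide precursors, averaged 271 ± 11 CPM in PND14 and 67.3 ± 2.5 CPM in PND1 (log2FC 2.01, SE 0.02), and *Chgb*, a protein of dense core vesicles, 351 ± 20 CPM in PND14 and 94.0 ± 7.0 CPM in PND1 (log2FC 1.90, SE 0.04). Of the 18 receptor and binding protein genes, 16 rose and 1 fell, with a median of 1.09. *Cckbr*, the main cholecystokinin receptor of the brain, averaged 48.7 ± 2.5 CPM in PND14 and 3.87 ± 0.63 CPM in PND1 (log2FC 3.65, SE 0.06), and the somatostatin receptor gene *Sstr3* 27.4 ± 2.1 CPM in PND14 and 3.60 ± 0.45 CPM in PND1 (log2FC 2.93, SE 0.07). The receptor gene that fell was *Sstr5*, with 0.556 ± 0.206 CPM in PND14 and 1.07 ± 0.20 CPM in PND1 (log2FC -0.92, SE 0.17).

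The identity genes went both ways, with 8 of 23 higher, 13 lower and a median of -0.29. *Gad2*, which makes GABA, averaged 279 ± 14 CPM in PND14 and 112 ± 12 CPM in PND1 (log2FC 1.319, SE 0.04). Transcription factor genes of interneurons from the medial ganglionic eminence went both ways. *Lhx6* averaged 27.6 ± 3.3 CPM in PND14 and 51.7 ± 7.3 CPM in PND1 (log2FC -0.90, SE 0.06), and *Nkx2-1* 2.74 ± 0.61 CPM in PND14 and 11.5 ± 3.9 CPM in PND1 (log2FC -2.03, SE 0.13), while *Sox6* (log2FC 0.28) and *Satb1* (log2FC 0.91), named after their values were seen, were called higher. Of 16 further interneuron markers, 10 rose and 5 fell, with a median of 0.65. *Penk*, the enkephalin precursor, had a log2FC of 2.29 (SE 0.07) and the potassium channel gene *Kcnc2* of fast-spiking cells 1.51 (SE 0.04), whereas *Reln*, which guides the layering of the cortex, had -0.92 (SE 0.05) and *Chodl*, a marker of long-range *Sst* cells, -1.05 (SE 0.09). All these had an edgeR adjusted p of 1.04e-06, that of *Sstr5*, or less. The hemisphere was sequenced in bulk, so the cells behind the values of these lists were not identified.

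Markers of other regions and cells moved with age as well. Of 19 hindbrain and spinal cord markers, the 17 that were tested all fell, with a summed level of 0.512 to 6.51 CPM in PND14 saline pups and 0.808 to 95.3 CPM in PND1 saline pups. All 8 oligodendrocyte markers and 5 of 6 astrocyte markers tested rose, 6 of 8 striatal markers rose and 1 fell, and 4 of 6 olfactory bulb markers rose and 2 fell. Their part in the change of the 8 genes was not tested.

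The next question was whether exposure to morphine in utero went with a difference at PND1. In code M, 2 of the 8 genes were called, *Vip* higher and *Sst* lower, where 14.4% of the 21714 genes tested were called. *Vip* had 1.03, 0.903, 0.854, 0.847, 1.43 and 0.660 CPM in the 6 morphine libraries, on 16 to 36 counts, against 0.470, 0.934, 0.289, 0.364, 0.507, 0.511 and 0.674 CPM in the 7 saline libraries, on 8 to 25 counts. Morphine replicates 5 and 9 lay above every saline library and the other 4 within the saline range. The means were 0.953 ± 0.261 CPM (SD, n = 6) and 0.536 ± 0.214 CPM (SD, n = 7), a log2FC of 0.84 (SE 0.26, edgeR adjusted p = 0.031).

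*Sst* had 66.5, 53.9, 55.6, 59.7, 60.0 and 52.2 CPM in the 6 code M morphine libraries of PND1, against 57.2, 69.5, 72.2, 67.8, 66.0, 74.7 and 57.6 CPM in the 7 saline libraries. Replicates 6, 7 and 10 of the morphine group lay below every saline library. The means were 58.0 ± 5.2 CPM (SD, n = 6) and 66.5 ± 6.8 CPM (SD, n = 7), a log2FC of -0.20 (SE 0.06, edgeR adjusted p = 0.035). Among the uncalled genes of this comparison the log2FC was -0.22 (adjusted p = 0.14) for *Npy*, 0.18 (adjusted p = 0.080) for *Tac1* and 0.43 (adjusted p = 0.15) for *Crh*, while *Cck*, *Pvalb* and *Calb2* had unadjusted p-values of 0.41 to 0.78.

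Both calls were lost under several settings. With a correction for GC content and length the log2FC of *Sst*, whose exons are 56.0% GC, was -0.08 (adjusted p = 0.37), and that of *Vip*, at 38.7% GC, was 0.69 (adjusted p = 0.11). Without the 4 morphine libraries with high hindbrain markers, a setting chosen after seeing the data that leaves 2 morphine libraries, *Sst* had -0.27 (adjusted p = 0.11) and *Vip* 0.72 (adjusted p = 0.31), and *Tac1*, which was not called, turned to -0.05. Once the libraries in which sex genes and label disagreed were left out, *Sst* stayed called (-0.23, adjusted p = 0.021) and *Vip* did not (0.69, adjusted p = 0.070). The call for *Vip* was lost without morphine replicate 9 (log2FC 0.67, adjusted p = 0.11) and without saline replicates 10 or 11 (adjusted p = 0.078 and 0.080). That for *Sst* was lost without morphine replicates 6, 7 or 10 or without saline replicates 9, 10, 11 or 13, with log2FC values from -0.20 to -0.17 and adjusted p-values from 0.062 to 0.099. DESeq2 kept both calls.

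Beside these values, the summed hindbrain and spinal cord markers were at 93.0 ± 52.8 CPM (30.8 to 171) in the code M morphine libraries and 34.95 ± 27.4 CPM (2.87 to 76.9) in the code M saline libraries, and 3 of the 17 tested were called higher. None of the 19 markers was at 0 in every library of either group. The summed astrocyte markers were at 857 ± 60 CPM (813 to 973) in morphine and 769 ± 44 CPM (709 to 819) in saline, with 0 of 6 called by edgeR. The summed oligodendrocyte markers were at 333 ± 31 CPM (295 to 379) in morphine and 308 ± 27 CPM (277 to 357) in saline, with 1 of 8 called higher. Their part in the values of *Vip* and *Sst* was not tested.

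In code F of PND1, edgeR called 0% of genes, with 2547 at an unadjusted p under 0.05 and 139 called by DESeq2, and none of the 8 genes had an unadjusted p under 0.05. *Vip* averaged 0.773 ± 0.276 CPM (n = 4) in morphine and 0.649 ± 0.234 CPM (n = 7) in saline, and *Sst* 64.3 ± 4.3 CPM in morphine and 65.3 ± 4.3 CPM in saline. The difference between the codes was not called for any of the 8 genes or for any other gene (0% called, 1187 at an unadjusted p under 0.05, 0 by DESeq2), at 0.18 (SE 0.09) for *Sst* and -0.59 (SE 0.39) for *Vip* as code F minus code M. Over both codes 16.8% of genes were called and none of the 8 genes was, although *Vip* (log2FC 0.54, adjusted p = 0.058) and *Npy* (log2FC -0.19, adjusted p = 0.086) were near the threshold. *Npy* averaged 26.5 ± 3.4 CPM (n = 10) in morphine and 30.3 ± 4.2 CPM (n = 14) in saline.

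Of the pathway genes, the peptide processing list had 6 of 13 genes higher in code M morphine pups of PND1 and none lower, with a median log2FC of 0.13, beside 6.31% higher and 8.08% lower over all genes. *Scg3*, a sorting protein of secretory granules, averaged 157 ± 9 CPM in morphine and 135 ± 7 CPM in saline (log2FC 0.21, SE 0.05, edgeR adjusted p = 0.0036), and *Pcsk2* 75.2 ± 3.2 CPM in morphine and 67.2 ± 3.2 CPM in saline (log2FC 0.16, SE 0.04, edgeR adjusted p = 0.0044). Of the other lists, 1 of 23 identity genes rose (*Sox6*, log2FC 0.19) and 1 fell (*Sp9*, -0.26), both coding for transcription factors, 1 of 16 further markers rose (*Chodl*, 0.46) and 1 of 18 receptor genes rose (*Tacr1*, the substance P receptor, 0.31). Without the 4 libraries with high hindbrain markers none of these lists had a called gene, where 124 of 22161 genes were called, with *Scg3* at 0.15 (adjusted p = 0.22) and *Pcsk2* at 0.15 (adjusted p = 0.13). With the libraries in which sex genes and label disagreed left out, 4 of the 13 processing genes were higher and 2 lower, and *Scg3* (0.18), *Pcsk2* (0.17), *Sox6*, *Sp9*, *Chodl* and *Tacr1* stayed called. Both settings for these lists were chosen after seeing the data. Over both codes of PND1, where 16.8% of genes were called, *Sox6* (0.25), *Sp9* (-0.23), *Scg3* (0.19) and *Pcsk2* (0.15) were called too. For these genes the both-code comparison was not run without the libraries named here.

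**Figure D3:**
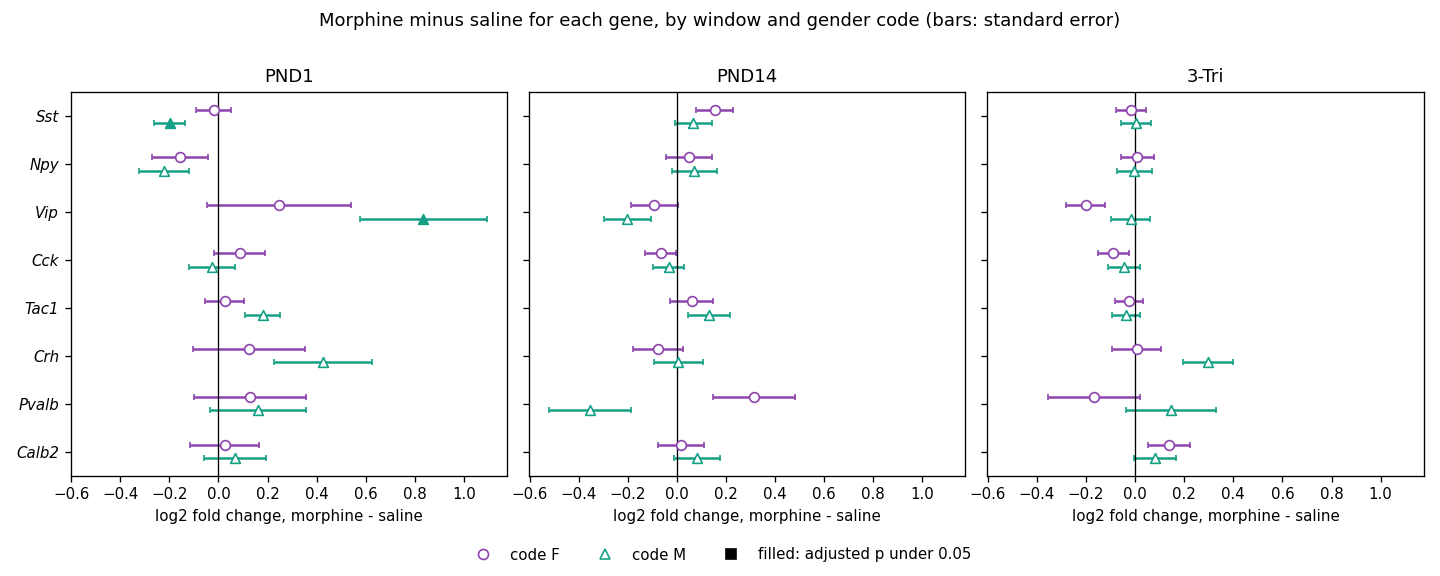
Morphine minus saline for each gene in the 3 windows. The horizontal axis is the log2FC and the bars are 1 SE, with code F as circles and code M as triangles, and filled marks have an edgeR adjusted p under 0.05. The filled marks are *Vip* (0.84) and *Sst* (-0.20) in code M of PND1.

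Whether the difference between morphine and saline was itself different at PND14 and at PND1 was tested in the fit of all 72 libraries, over both codes. Of 22010 genes, 13.3% were called, and of the 8 genes *Vip* and *Sst*. The pups of PND14 and PND1 also differed in age and in the route and period of exposure, which cannot be told apart here. In the fits of each window the log2FC of *Vip* for morphine was -0.15 in PND14 and 0.54 in PND1, and the difference of the 2 effects was -0.69 (SE 0.19, edgeR adjusted p = 0.0076). It was called in 28 of 29 alternatives and lost once the libraries in which sex genes and label disagreed were left out (-0.57, adjusted p = 0.060). In 18 of these 29 alternatives 1 saline library or saline ID number was left out, and the morphine libraries were not left out in turn. The log2FC of *Sst* was 0.11 in PND14 and -0.11 in PND1, a difference of 0.22 (SE 0.07, edgeR adjusted p = 0.031), which was called in 26 of 29 alternatives. That call was lost with the GC content and length correction (0.08, adjusted p = 0.46), with no filter on low counts (0.21, adjusted p = 0.060) and without the PND14 pups of ID number 4424 (0.20, adjusted p = 0.10). For *Npy* the difference was 0.25 (adjusted p = 0.076) and for *Crh* -0.31 (adjusted p = 0.17). Of the peptide processing list, 1 gene had a positive difference (*Pcsk1n*, 0.27) and 6 of 13 a negative one, led by *Scg3* (-0.27) and *Pcsk2* (-0.22), beside 7.25% positive and 6.07% negative over all genes. *Npas1* (0.24) and *Sp9* (0.30) had positive differences among the identity genes and *Sox6* (-0.39) and *Erbb4* (-0.26) negative ones, as had *Kcnc2* (-0.24) and *Nos1* (-0.25) among the further markers. Without the 4 libraries with high hindbrain markers the difference was -0.63 (adjusted p = 0.048) for *Vip*, 0.26 (adjusted p = 0.024) for *Sst* and 0.34 (adjusted p = 0.025) for *Npy*, and the 9 pathway genes named here stayed called, with 1 processing gene positive and 3 negative.

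In PND14 pups none of the 8 genes was called for morphine in either code or over both. The share of all genes called was 0% in code F (2054 at an unadjusted p under 0.05, 28 by DESeq2), 0.28% in code M and 1.69% over both codes. *Vip* averaged 17.4 ± 2.4 CPM in morphine and 19.3 ± 2.3 CPM in saline (n = 12 each), with 7 of 12 morphine libraries below every saline library, a log2FC of -0.15 (SE 0.07, edgeR adjusted p = 0.27). Such counts of libraries, here and below, have no share over all genes beside them and set no gene apart. *Sst* averaged 139 ± 15 CPM in morphine and 128 ± 11 CPM in saline, a log2FC of 0.11 (SE 0.05, edgeR adjusted p = 0.29). *Npy*, *Cck*, *Tac1*, *Crh* and *Calb2* had log2FC values from -0.05 to 0.10 over both codes. Of the pathway genes the identity gene *Npas1* rose (log2FC 0.15), and *Kcnc2* (-0.19) and *Lamp5* (-0.21), a marker of neurogliaform cells, fell. Of 8 oligodendrocyte markers 4 fell.

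The values of *Pvalb* for the 2 codes stood on opposite sides at PND14. In code M it had 10.7, 9.01, 11.1, 11.8, 9.34 and 11.01 CPM in morphine against 12.6, 17.2, 11.6, 11.1, 12.2 and 14.97 CPM in saline, with 5 of 6 morphine libraries below every saline library (log2FC -0.35, SE 0.17, edgeR adjusted p = 0.52). In code F it had 13.3, 26.7, 13.5, 9.08, 13.1 and 14.3 CPM in morphine against 12.1, 12.1, 15.3, 10.3, 9.89 and 14.9 CPM in saline, with 1 morphine library, replicate 5, far above the rest (log2FC 0.31, SE 0.17, edgeR adjusted p = 0.51). The difference between the codes was 0.67 as code F minus code M (SE 0.24, unadjusted p = 0.0085, edgeR adjusted p = 1), in a comparison that called 0% of genes, with 676 at an unadjusted p under 0.05 and 0 by DESeq2. Replicate 5 also had the highest summed cerebellar markers of the PND14 libraries, at 223 CPM. Without it, a setting chosen after seeing the data, the log2FC of *Pvalb* was 0.06 in code F and -0.35 in code M (edgeR adjusted p = 0.25), and their difference was 0.41 (edgeR adjusted p = 1).

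In 3-Tri pups, by label, edgeR called 0% of genes in code F, 0% in code M, 0% over both codes and 0% for the difference between codes, while unadjusted p-values under 0.05 numbered 476, 982, 963 and 457 in that order and DESeq2 called 0 in each. *Crh* in code M came nearest, with 7.90, 6.14, 7.14, 6.68, 5.91 and 6.45 CPM in morphine against 3.35, 5.88, 5.29, 5.81, 5.85 and 4.89 CPM in saline. The 2 groups did not overlap (log2FC 0.30, SE 0.10, edgeR adjusted p = 0.92). How many of all genes separate in this way was not counted, so the separation does not set *Crh* apart. The lowest saline value came from the library of 3113919 counts, where *Crh* had 9 counts, and once the libraries in which sex genes and label disagreed were left out the log2FC was 0.33 (SE 0.18, adjusted p = 1). In code F, *Crh* averaged 6.11 ± 0.69 CPM in morphine and 6.08 ± 0.87 CPM in saline. *Vip* in code F averaged 17.0 ± 2.5 CPM in morphine and 19.6 ± 1.1 CPM in saline, with 4 of 6 morphine libraries below every saline library (log2FC -0.20, SE 0.08, edgeR adjusted p = 1). The remaining genes had log2FC values from -0.17 to 0.15 in either code.

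Beyond group means, libraries of 1 group differed from each other, and this spread was read for which genes moved with which. Each value is a Pearson r between deviations of log2 CPM from the 12 group means over the 72 libraries, beside Spearman's rho. These points share dissection, depth and base composition within a library, so r is given as a description. Among the 28 pairs of the 8 genes the highest was *Sst* with *Tac1* (r 0.62, rho 0.58, and 0.63 without the 2 libraries farthest from the median of *Sst*), followed by *Sst* with *Npy* (r 0.54, rho 0.51) and *Npy* with *Cck* (r 0.49, rho 0.54). *Npy* with *Vip* was lowest (r -0.29, rho -0.18), at -0.54 within PND1, 0.17 within PND14 and 0.01 within 3-Tri.

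Over 14230 candidate genes, those most like each of the 8 genes were then listed, 3 for each. For *Pvalb* these were *Pcp2* (r 0.75, rho 0.67, and 0.68 without the 2 libraries farthest from the median of *Pvalb*), *Car8* (0.70) and *Neurod1* (0.69), of which *Pcp2* and *Car8* are strongly expressed by Purkinje cells and *Neurod1* by cerebellar granule cells. The r with *Pcp2* was 0.67 within PND1, 0.69 within PND14 and 0.86 within 3-Tri. The mean of the 8 cerebellar markers, of which *Pcp2* is 1, gave 0.69 with *Pvalb* over all libraries, and 0.62, 0.65 and 0.84 within PND1, PND14 and 3-Tri. *Pcp2* itself averaged 3.20 ± 2.08 CPM in PND14 morphine pups and 2.58 ± 0.57 CPM in PND14 saline pups, with 9.10 CPM in the morphine library that had the highest *Pvalb*.

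For *Vip* the nearest genes were *Gfap* (r 0.70, rho 0.48, and 0.61 without the 2 libraries farthest from the median of *Vip*), an astrocyte filament protein, *Hapln1* (0.69), a matrix link protein, and *Bcas1* (0.66), a gene of maturing oligodendrocytes. The likeness to *Gfap* was at 0.87 within PND1, 0.37 within PND14 and -0.15 within 3-Tri. The mean of 6 astrocyte markers, of which *Gfap* is 1, gave 0.82 with *Vip* within PND1 and that of 8 oligodendrocyte markers 0.74. In code M of PND1, where *Vip* was called for morphine, *Gfap* had 40.2, 40.02, 40.9, 41.6, 54.5 and 38.4 CPM in morphine against 37.1, 49.0, 26.5, 27.8, 33.5, 33.6 and 37.5 CPM in saline, and the library with 54.5 CPM, replicate 9, was also the one with the highest *Vip* (1.43 CPM).

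For the other genes the nearest were as follows. *Sst* went with *Uchl1* (r 0.80, rho 0.80), a neuronal deubiquitinase, *Fkbp1a* (0.79) and *Mif* (0.78), and *Npy* with *Ndufv3* (0.76), *Rpl37* (0.73) and *Eif1b* (0.73), which serve the respiratory chain, the ribosome and translation. *Tac1* went with *Ndufa11* (0.71), *Mrpl11* (0.68) and *Il11ra1* (0.65), the first a respiratory chain subunit and the second a mitochondrial ribosomal protein. *Cck* went with *Sprn* (0.73), *Ctxn1* (0.70) and *Stx1a* (0.70), the last a syntaxin of the presynaptic terminal. *Crh* went with *Srxn1* (0.64), *Tppp3* (0.64) and *Acsbg1* (0.63), and *Calb2* with *Hap1* (0.70), *Dlk1* (0.64) and *Itm2b* (0.63). None of the 24 genes so named belongs to the interneuron lists above. Against the means of the marker lists, the highest r was 0.48 for *Sst* and 0.38 for *Tac1*, both with peptide processing. It was 0.46 for *Npy* with cortical excitatory neurons, at 0.82 within PND1, -0.26 within PND14 and 0.19 within 3-Tri. With microglia it was 0.45 for *Cck* (0.20, 0.69 and 0.62 within the windows in that order) and 0.62 for *Crh* (0.71, 0.66 and 0.54). For *Calb2* it was 0.45, with thalamus and midbrain markers, at 0.69 within PND1, 0.27 within PND14 and 0.56 within 3-Tri.

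**Figure D4:**
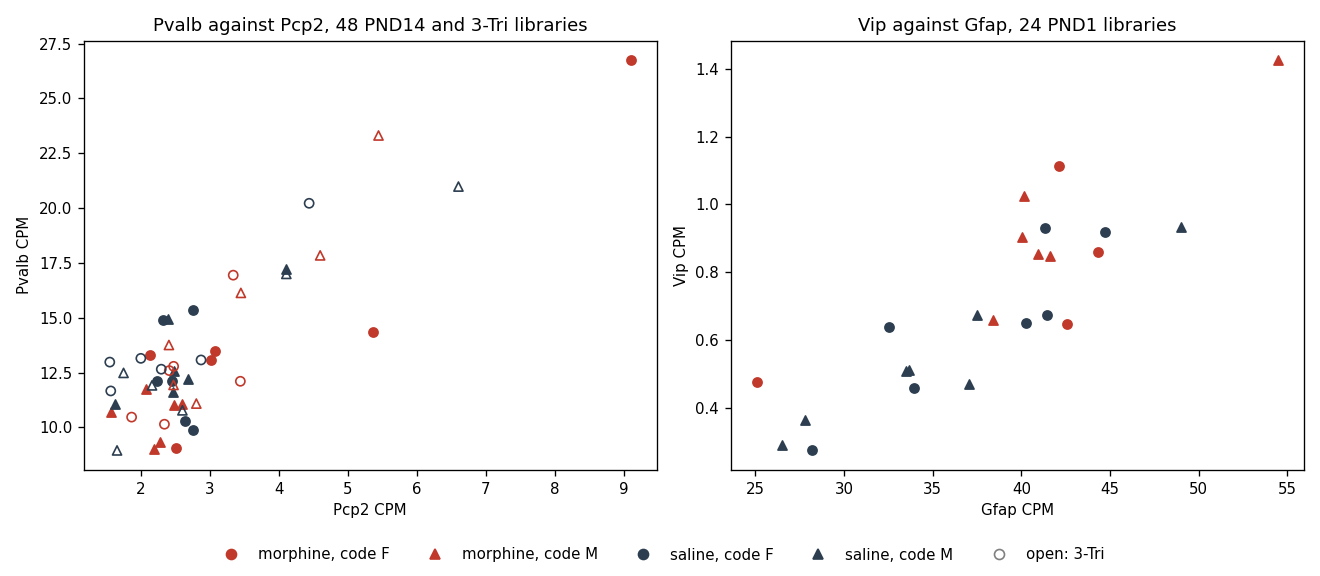
*Pvalb* against *Pcp2* in the 48 PND14 and 3-Tri libraries (left) and *Vip* against *Gfap* in the 24 PND1 libraries (right), each point a library and both axes in CPM. Red is morphine, dark is saline, circles are code F, triangles are code M and open marks are 3-Tri. The library with the highest *Pvalb* (26.7 CPM) had the highest *Pcp2* (9.10 CPM), and the one with the highest *Vip* (1.43 CPM) had the highest *Gfap* (54.5 CPM).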

How the data were processed

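RNA of the right brain hemisphere of single pups was sequenced in 72 libraries, as paired-end reads from NEBNext Ultra II libraries. According to the paper's methods and the submitters' processing notes, the authors trimmed reads with Trim Galore 0.6.6, aligned them to mm10 with HISAT2 2.2.1, removed duplicates with Picard and assigned the remaining reads to genes with featureCounts 2.0.1 on a GENCODE annotation, which leaves duplicate removal and the counting rules already in every value. The strand setting is not given in the sources used here, and no annotated gene overlaps any of the 8 genes. In the table deposited by the authors the values are raw counts, with 0 columns that matched no sample and 0 rows that name no gene. Result tables of DESeq2, also deposited by the authors, hold their comparisons. From these the gene symbols were taken (one column of other content) and the mean signal per gene, a mean of counts over size factors, was used only to find which libraries the authors had kept. Their fold changes and p-values were not used.

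The tests are those of edgeR 4.0.16 under R 4.3.3, after filterByExpr (minimum count 10, minimum total count 15) and TMM, in 1 fit of 4 groups per window for morphine minus saline and 1 fit of all 12 groups for differences between windows. Contrasts over both codes weight the codes equally, the SE is the log2FC over the square root of F, and adjusted p-values are Benjamini-Hochberg over all genes tested. Alternatives were other scalings, no filter, DESeq2 1.42.0, a block on the replicate number, fits of only the groups compared, a GC content and length correction (lowess, span 0.3), fits without single libraries or ID numbers, without the libraries the authors left out or those in which sex genes and label disagreed (the other sex's gene above 25% of that sex's median), and limma 3.58.1 with the ID number as a random effect. A correction for the differences between windows, the fits without 4 PND1 libraries and the fit without 1 PND14 library were chosen after seeing the data. The steps were tested on simulated counts of independent pups, with log2 changes of 0.5 or 1 and no effect of litter or ID number. For code M morphine minus saline at PND1, 75.5% of the changes of 0.5 were recovered. Smaller changes, such as that of *Sst* in this comparison, were not simulated.

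The 8 genes, the lists and the tests were chosen with earlier results of these data known. Genes were named by a rule: the 8 genes in every comparison, the 3 protein-coding genes most like each (mean log2 CPM above 0), and up to 2 rising and 2 falling genes of each pathway list with the smallest p among those called. One gene that the rule named is not reported here. Coordinates, exon lengths and GC content are those of GENCODE M21 and promoters those of RefSeq GRCm38.p6. No library matched another of its group within counting noise (lowest chi-square per gene 1.64 over 183 pairs). The depth of 3113919 to 27333125 counts limits *Vip*, *Crh* and *Pvalb* most, and these values cover counting error and the spread between pups only.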

Additional observations from a re-analysis of the deposited data

Results flagged for a closer look

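In 6 of 96 groups tested, 1 library stood apart from the others of its group by Dixon's test, where chance gives about 1 in 20. *Pvalb* was at 26.7 CPM in code F morphine replicate 5 of PND14, with the next library of the group at 14.3 CPM, and at 20.2 CPM in code F saline replicate 7 of 3-Tri, with the next at 13.1 CPM. *Tac1* was at 45.7 CPM in code M saline replicate 1 of 3-Tri, with the next at 35.5 CPM, in the library of 3113919 counts where *Tac1* had 123 counts. *Vip* was at 21.4 CPM in code M morphine replicate 1 of PND14 (next 16.5 CPM), *Npy* at 41.2 CPM in code M saline replicate 3 of 3-Tri (next 36.0 CPM) and *Cck* at 29.4 CPM in code M saline replicate 9 of PND1 (next 23.7 CPM).

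The difference between the effects of morphine at PND14 and at PND1 was called for *Vip* (-0.69) and *Sst* (0.22). Each was tested as the difference of the 2 effects on the log2 scale in 1 edgeR fit, which called 13.3% of 22010 genes. Neither gene was called for morphine over both codes in PND14 or in PND1, and neither call for the difference held under every alternative.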

How the results depend on the processing

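The rise of the 8 genes with age in saline pups was called under every alternative but for *Npy*. With total count scaling *Npy* had a log2FC of 0.04 over both codes, 0.07 in code F, 0.01 in code M and 0.04 for 3-Tri minus PND1, none called. In code M its call was also lost with the GC content and length correction (0.10), with the replicate block (0.10), without PND1 code M saline replicate 14 (0.19) and without ID number 4425 (0.24). Over fits that each left out 1 library or ID number, the number of the 8 genes called was 8 to 8 over both codes, in code F and for 3-Tri minus PND1, and 7 to 8 in code M. For code M morphine minus saline at PND1, with 2 called, it was 0 to 3, and it was 0 with the replicate block, 0 with the GC content and length correction, with or without the block, 0 without the 4 libraries with high hindbrain markers, 1 with only the groups compared and 1 without libraries in which sex genes and label disagreed. The genes called in that comparison numbered 3124 in all, 1286 with the correction, 1828 with the block, 151 with both and 124 without those 4 libraries. Over both codes at PND1, with 0 called, it was 0 to 2 over the left-out libraries and 2 with the replicate block (*Vip* 0.70, *Npy* -0.29). For the difference of the effects between PND14 and PND1, with 2 called, it was 1 to 3 over left-out saline libraries or saline ID numbers. Morphine libraries were not left out in turn there. It was 1 with no filter and 1 without libraries in which sex genes and label disagreed. All other comparisons stayed at 0. *Sst* over both codes at PND1 turned to 0.0135 with the correction and the block, and *Tac1* in code M to -0.0472 without the 4 libraries. The cause was not tested. Replicate numbers were not taken to pair the samples in the main fits. Same-numbered morphine and saline libraries had correlated deviations above 0.1 in 0 of 4 and 1 of 3 pairs of PND1 (code F and code M). The counts were 1 of 6 and 2 of 6 in PND14 and 4 of 6 and 3 of 6 in 3-Tri, where r reached 0.33. Differently numbered libraries were not measured beside them, so these values do not settle whether the numbers pair the samples. At PND1, depth limits *Vip* (7 to 36 counts), *Pvalb* (11 to 36) and *Crh* (20 to 66).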
